A study of Mus musculus with 4 samples.

Results

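The genes described here are 36 listed targets of serum response factor (SRF) and its cofactors, the myocardin-related transcription factors (MRTFs), that encode actins, actin-binding proteins, myosin components, adhesion proteins and the factors themselves. They were taken by symbol from the table of expression levels, with Mkl1 and Mkl2 under their present names Mrtfa and Mrtfb, and all 36 were among the 18193 genes measured. A gene with several probe sets, the groups of short probes that read 1 transcript, was read by its brightest one, taken over the 4 arrays together. SRF binds DNA at a short A- and T-rich element called the CArG box. MRTFs bind monomeric actin, which holds them in the cytoplasm, and enter the nucleus when actin polymerises and monomers run short. The genes they then switch on rebuild the actin cytoskeleton, and in vessel cells that response is known for contractility, migration and sprouting. MICAL enzymes oxidise actin filaments, and MICAL2 is known to promote MRTF and SRF activity.

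Messenger RNA levels were measured in SVEC4-10, a virally transformed line of vessel endothelium from mouse lymph node, with 1 array in each of 4 groups. The untreated array held cells that received no vector. For the others, a pLENTI6/Block-iT lentiviral vector was brought into the cells, which were then selected with blasticidin: the vector array carried no insert, and the remaining ones made short hairpin RNAs aimed at Mical2 and at Mical3, respectively. All groups came from 1 cell line, and the RNA of 3 biological replicates was pooled before hybridisation. The spread between replicates can therefore not be seen, no test was run, and no p-value or error is given. The hairpin inserts are shown because they define the groups, with the sense strand of each 23-base stem in capitals.
Mical2 hairpin: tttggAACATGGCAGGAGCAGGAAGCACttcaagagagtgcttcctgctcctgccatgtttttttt
Mical3 hairpin: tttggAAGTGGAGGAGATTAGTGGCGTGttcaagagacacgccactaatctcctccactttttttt

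Levels are log2 expression values, so a difference of 1 is 2-fold, and levels of different genes are not compared because probes differ in brightness. A gene is called higher or lower when the compared arrays differed by at least 1 and the higher level was at or above a floor of 5.41, the median of all values. Against both controls, the difference had to pass from each of the controls, vector and untreated, in 1 direction. Array medians lay between 5.40 and 5.44. The spread between probe sets of 1 gene had a standard deviation between 0.24 and 0.36 over the comparisons. It leaves out variation between cultures and may hold real differences between the transcripts read, so it is a guide and not the error of a difference.

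The transcripts aimed at did not mark their own arrays. In the order untreated, vector, labelled Mical2 and labelled Mical3, which is kept wherever 4 levels are listed, 1 Mical2 probe set read 5.60, 5.14, 5.53 and 6.08 and the other 5.33, 4.64, 5.53 and 6.0. Mical3 read 7.39, 7.29, 6.83 and 7.24. Another Mical3 probe set, annotated to a second gene as well, lay below the floor at 4.90, 4.83, 4.81 and 4.71. Neither gene was lower by 2-fold than both controls on the array of its own hairpin. The Mical2 levels of the controls lay near or below the floor, where a fall is hard to see, so they cannot show whether that hairpin lowered its target. For Mical3 the first probe set lay above the floor. It read 7.24 on the array of its own hairpin against 7.39 and 7.29 on the controls, so no clear fall was seen. Its lowest level, 6.83, was on the array labelled Mical2. The hairpin arrays are therefore named by their labels, and every direction below is a difference between labelled arrays. Endothelial markers were weak: of 13, 9 lay below the floor on all 4 arrays, Pecam1, Cdh5, Tek, Tie1, Emcn, Erg, Vwf, Prox1 and Lyve1, while Kdr, Flt1, Egfl7 and Esam reached it, and the log2 of the summed level of the list lay between 9.26 and 9.32. Among smooth muscle markers outside the 36, the myosin gene Myh11 and the cofactor gene Myocd were below the floor on every array, and Smtn (6.90 to 8.23) and Des (6.58 to 6.97) were above it.

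As a group the contractile targets stood low on the vector array and high on the array labelled Mical3. Of the 36, 34 reached the floor on some array, and Cnn1 and Myl9 did not. The vector array was the lowest of the 4 for 22 of these 34 (64.7%), against 26.9% of the 12166 genes at the floor. The array labelled Mical3 was the highest for 22 (64.7%), against 27.4% of all genes. Both held for 19 (55.9%), among them all 5 actins and Srf itself, against 12.8% of all genes. Other orders were less frequent: the vector array was highest for Filip1l, Mrtfa, Mrtfb and Pdlim5 (all genes 34.4%), and the untreated array was highest for Lmod1, Myh9 and Myh10 (14.8%) and lowest for Mrtfa (16.2%). The array labelled Mical3 was lowest for 4, Fhl2, Filip1l, Mylk and Tpm2 (27.0%). The array labelled Mical2 was lowest for 6 (27.8%), Cnn3, Lmod1, Mrtfb, Myh10, Nebl and Pdlim5, and highest for 5 (21.6%), Fhl2, Flna, Mylk, Tagln2 and Tpm2. By pairs, the vector array lay below the untreated one for 28 of 34 (all genes 45.4%). The array labelled Mical3 lay above the untreated array for 25 (50.4%), above the vector array for 25 (46.6%) and above the array labelled Mical2 for 28 (51.5%). The array labelled Mical2 lay above the vector array for 25 (45.4%) but above the untreated array for only 17 (45.8%), near the share of all genes. The highest and lowest arrays lay at least 2-fold apart for 14 (41.2%), against 20.2% of all genes, and the plot of levels shows these 14.

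**Figure D1:**
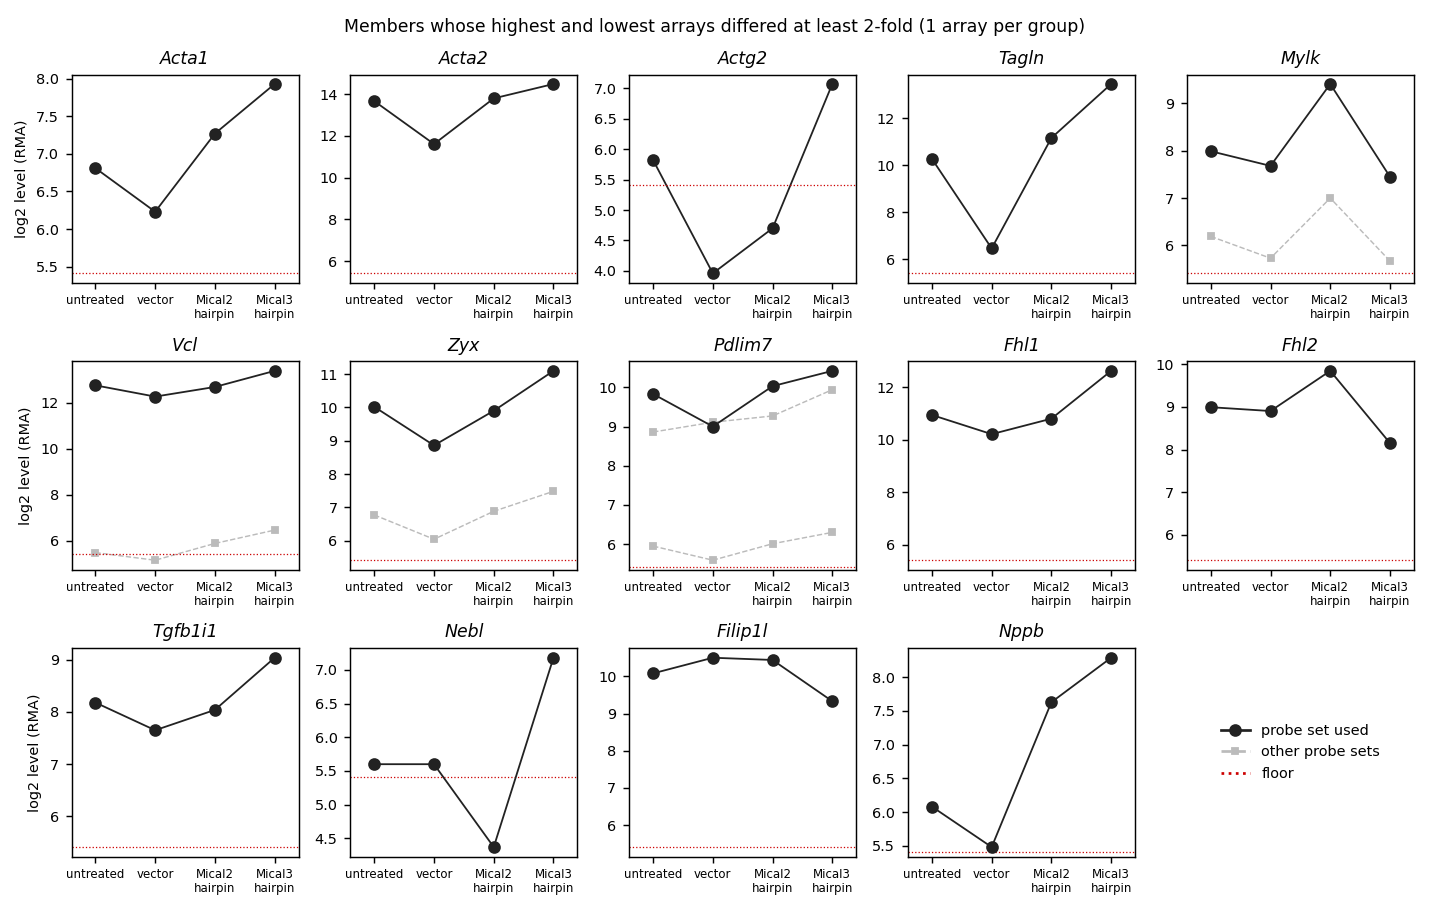
Log2 levels of the 14 members whose highest and lowest arrays differed at least 2-fold, on the 4 arrays. Black points are the probe set that stands for the gene, grey squares its other probe sets with a mean at or above the floor, lines only join points of 1 probe set, the dotted line is the floor of 5.41, and each panel has its own axis. Tagln ran from 6.47 on the vector array to 13.45 on the array labelled Mical3, while Mylk and Fhl2 peaked on the array labelled Mical2 and Nebl was lowest there.

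The medians over all 36 gave the same order. The median difference of the vector array from the untreated array was -0.35, against 0.02 for all genes, and 29 of 36 members lay below 0. The array labelled Mical3 had a median of 0.19 from the untreated array (all genes 0.02) and 0.55 from the vector array (all genes 0.0). The array labelled Mical2 had a median of -0.005 from the untreated array (all genes 0.01) and 0.405 from the vector array (all genes 0.01). Between the hairpin arrays the median was 0.25 in favour of the array labelled Mical3, with 29 of 36 members above 0 (all genes 0.0). These comparisons share arrays and are not independent of each other.

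**Figure D2:**
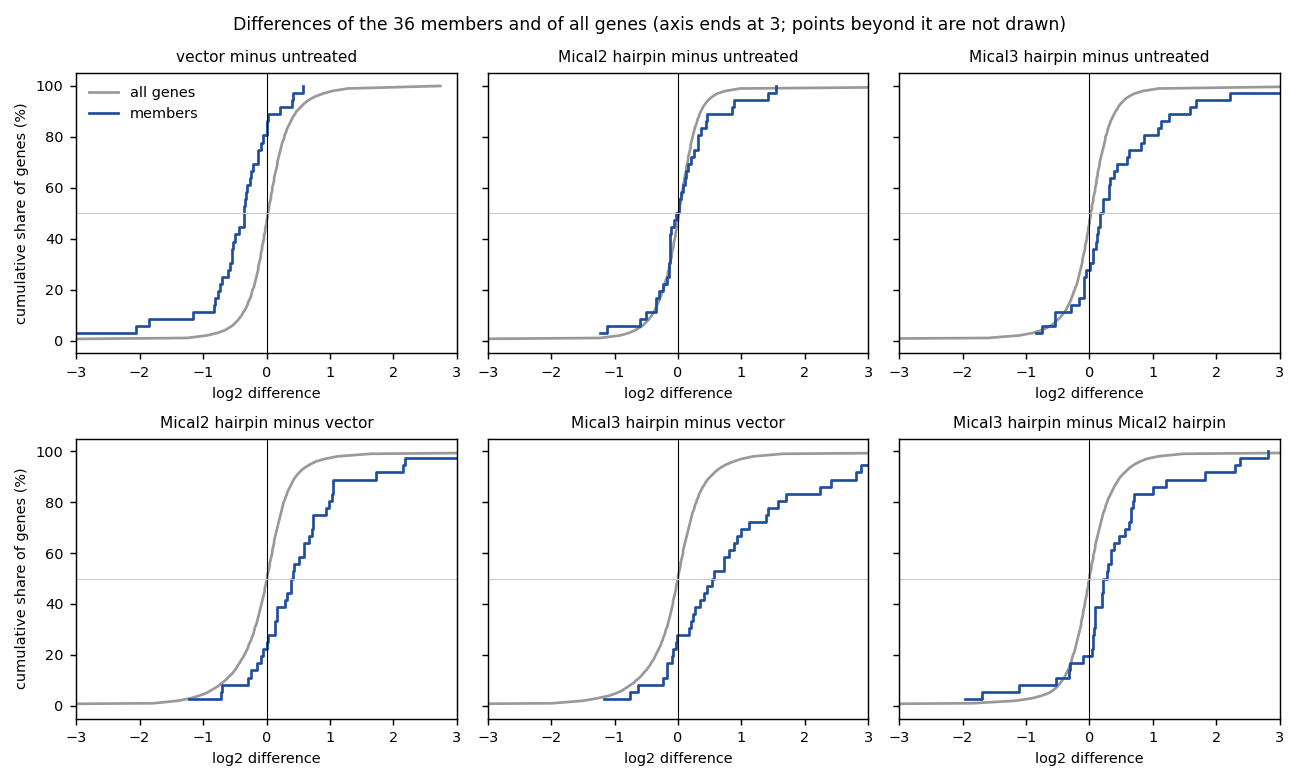
Cumulative share of the 36 members (blue steps) and of all 18193 genes (grey) against the log2 difference, 1 panel for each pair of arrays, with the axis ending at 3 in both directions. The blue curve lies left of the grey one for the vector against the untreated array (median -0.35). It lies close to it around the median for the array labelled Mical2 against untreated (-0.005), and right of it around the median for the other pairs. In the lower tail the curves cross for the array labelled Mical3 against untreated and against the array labelled Mical2.

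By the rule of size, 4 members were called lower on the vector array than on the untreated array, Acta2, Actg2, Tagln and Zyx (11.8% of the 34 tested, against 2.57% of all genes). None was called higher (all genes 3.26%, and 5.83% in either direction). On the array labelled Mical3, 7 were called higher than both controls, Acta1, Actg2, Tagln, Zyx, Fhl1, Nebl and Nppb (20.6%, against 1.38% of all genes). None was called lower (all genes 2.49%, and 3.87% in either direction). On the array labelled Mical2, Mylk and Nppb were called higher than both controls (5.88%, against 0.977% of all genes) and Nebl lower (2.94%, against 1.75%), which makes 3 in either direction (8.82%, against 2.73%). Between the hairpin arrays 9 were called (26.5%, against 7.53% of all genes). Actg2, Tagln, Zyx, Fhl1, Tgfb1i1 and Nebl were higher on the array labelled Mical3 (17.6%, against 3.72%), and Mylk, Fhl2 and Filip1l were lower there (8.82%, against 3.81%). Tgfb1i1 stood on the threshold, at a difference of 1.0. It was not called when arrays were shifted to the same mean or adjusted by a fit along the mean level.

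The counts differed with the control. Against the vector array alone, 7 members were called higher on the array labelled Mical2, Acta1, Acta2, Mylk, Nppb, Pdlim7, Tagln and Zyx (all genes 3.82%), and Nebl lower (6.91%), 8 in all (10.7%). Against the untreated array alone, Mylk and Nppb were called higher on it (1.44%) and Actg2 and Nebl lower (2.44%), 4 in all (3.89%). For the array labelled Mical3, 11 were higher than on the vector array (4.64%), the 7 above with Acta2, Pdlim7, Tgfb1i1 and Vcl, and Filip1l was lower (7.13%), 12 in all (11.8%). Against the untreated array alone the same 7 were higher (1.95%) and none lower (3.72%), with 5.67% of all genes called in either direction.

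Other marker lists moved between the same arrays. Of 10 pericyte and fibroblast markers 7 reached the floor, and Rgs5, Lum and Thy1 did not. The log2 of their summed level was 15.58 on the untreated array, 13.03 on the vector array, 15.25 on the one labelled Mical2 and 13.51 on the one labelled Mical3. Of the 7, 6 were called lower on the vector array than on the untreated array (all genes 2.57%). Pdgfrb and Col1a2 were called lower on the array labelled Mical3 than on both controls (all genes 2.49%). Against the untreated array alone, 5 of the 7 were called lower on the array labelled Mical3 (all genes 3.72%). The list's median difference on that array was -1.125 from the untreated array and 0.08 from the vector array, itself low for this list. Its genes did not move as 1 there: Dcn read 12.36, 10.52, 12.27 and 12.79 and was highest there, and Cspg4 spanned 6.25 to 6.40. Of 4 epithelial markers 3 reached the floor, and Cdh1 did not, with a log2 summed level of 9.01, 7.78, 9.14 and 9.31. Their keratins were called lower on the vector array (all genes 2.57%), with Krt8 at 6.42 against 8.27 on the untreated array and Krt18 at 4.84 against 5.85. Krt18 was called higher than both controls on the array labelled Mical3, at 7.41 (all genes 1.38%). Their part in the differences of the contractile targets was not tested. In RNA from whole cultures, fewer cells of a kind and less RNA per cell cannot be told apart. Of 4 leukocyte markers Cd3e alone reached the floor (5.80 to 5.89), and of 4 skeletal muscle markers Ckm alone (5.63 to 5.72), so these lists lay near background on all 4 arrays. The manufacturer's Actb controls gave a 3' minus 5' difference, a sign of RNA integrity, of 0.18 on the vector array and 0.03 to 0.06 on the others, and the Gapdh controls gave -0.13 on the vector array and -0.22 to -0.15 on the others.

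The promoters of the members carried the SRF element more often than promoters at large, as a list of SRF targets is drawn up to do, so the share describes the list and is no independent evidence. A CArG box was searched by its consensus, 2 C, 6 bases of A or T and 2 G, which reads the same way on both strands, in RefSeq windows of build GRCm38.p6 from 250 bases before to 50 bases after each annotated start. RefSeq windows were found for 32 of the 36 members, so Actb, Actg2, Tagln and Tgfb1i1 were not searched, and 10 of those 32 (31.2%) held a box, against 488 of 27025 genes (1.81%). By window, 1.63% of all 32851 held one. The members with a box were Acta1, Actg1, Cnn2, Fhl1, Fhl2, Filip1l, Myl9, Nebl, Srf and Vcl. A looser form with 1 G or C among the 6 inner bases was found in 5 of 32 members (15.6%), Acta1, Acta2, Mrtfa, Myl9 and Tpm3, against 9.69% of all genes. Of the windows with a match, those of Acta1 and Acta2 are shown because both genes had the vector array lowest and the array labelled Mical3 highest, that of Fhl1 because it was called higher on the array labelled Mical3, that of Fhl2 because it ran the other way, and that of Srf because it is the factor itself. Each stretch is the 250 bases before the annotated start, written 5′ to 3′ along the gene's strand, with boxes of either form in capitals.
Acta1, chr8:123894776-123895025, minus strand: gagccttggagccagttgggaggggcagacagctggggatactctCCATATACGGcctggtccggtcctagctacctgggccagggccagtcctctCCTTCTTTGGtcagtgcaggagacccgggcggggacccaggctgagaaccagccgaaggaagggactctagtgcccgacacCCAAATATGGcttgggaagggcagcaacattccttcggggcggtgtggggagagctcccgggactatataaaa
Acta2, chr19:34255374-34255623, minus strand: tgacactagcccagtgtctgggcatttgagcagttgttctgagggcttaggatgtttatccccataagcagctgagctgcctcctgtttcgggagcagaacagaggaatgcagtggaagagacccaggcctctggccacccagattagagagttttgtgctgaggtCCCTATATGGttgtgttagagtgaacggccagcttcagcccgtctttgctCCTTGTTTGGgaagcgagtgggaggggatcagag
Fhl1, chrX:56779433-56779682, plus strand: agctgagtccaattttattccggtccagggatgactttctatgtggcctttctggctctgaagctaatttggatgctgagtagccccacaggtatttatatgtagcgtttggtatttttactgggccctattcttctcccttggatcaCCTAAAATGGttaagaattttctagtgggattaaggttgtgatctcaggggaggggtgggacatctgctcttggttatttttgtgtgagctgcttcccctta
Fhl2, chr1:43163962-43164211, minus strand: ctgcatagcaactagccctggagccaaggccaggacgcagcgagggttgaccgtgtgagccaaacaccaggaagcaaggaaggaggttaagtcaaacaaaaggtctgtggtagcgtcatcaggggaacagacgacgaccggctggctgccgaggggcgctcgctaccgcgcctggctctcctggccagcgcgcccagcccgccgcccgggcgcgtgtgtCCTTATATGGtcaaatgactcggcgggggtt
Srf, chr17:46556163-46556412, minus strand: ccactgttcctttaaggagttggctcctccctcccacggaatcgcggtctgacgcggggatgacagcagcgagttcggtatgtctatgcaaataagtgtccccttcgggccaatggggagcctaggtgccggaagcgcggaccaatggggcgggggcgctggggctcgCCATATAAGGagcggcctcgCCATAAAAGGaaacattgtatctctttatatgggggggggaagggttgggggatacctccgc

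Acta1 held 1 box of the strict form, CCAAATATGG, which began 73 bases before the annotated start, and 2 of the looser form at 205 and 154 bases. Acta2 held none of the strict form and 2 of the looser one, CCCTATATGG at 84 bases and CCTTGTTTGG at 34 bases. Srf held 2 strict boxes, CCATATAAGG at 82 bases and CCATAAAAGG at 62 bases. Of 2 annotated starts of Fhl1, 1 had a box, CCTAAAATGG at 102 bases, and both starts of Fhl2 had one, CCTTATATGG at 31 bases in the window shown and CCAAAAAAGG at 96 bases in the other. The palindrome CCTTATAAGG occurred in Cnn2 at 56 bases, in 1 of 2 windows of Filip1l at 62 bases and in Vcl at 227 bases. The remaining strict boxes were CCATATATGG in Actg1 at 90 bases, CCTAATAAGG in Myl9 at 161 bases and CCTAAATTGG in 1 of 4 windows of Nebl at 162 bases. The 10 members with a strict box did not form a single pattern. Their median difference between the array labelled Mical3 and the vector array was 0.805, against 0.34 for the 19 members with neither form. For the vector against the untreated array the medians were -0.38 and -0.34. Myl9, below the floor on every array, is counted among the 10. Both groups leave out Actb, Actg2, Tagln and Tgfb1i1, which were not searched. On the array labelled Mical3 these differed from the vector array by 0.2, 3.11, 6.98 and 1.39. The array labelled Mical3 lay below both controls for Fhl2 and Filip1l, which hold a box, and above both for Fhl1, Acta1 and Nebl, which hold one too.

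**Figure D3:**
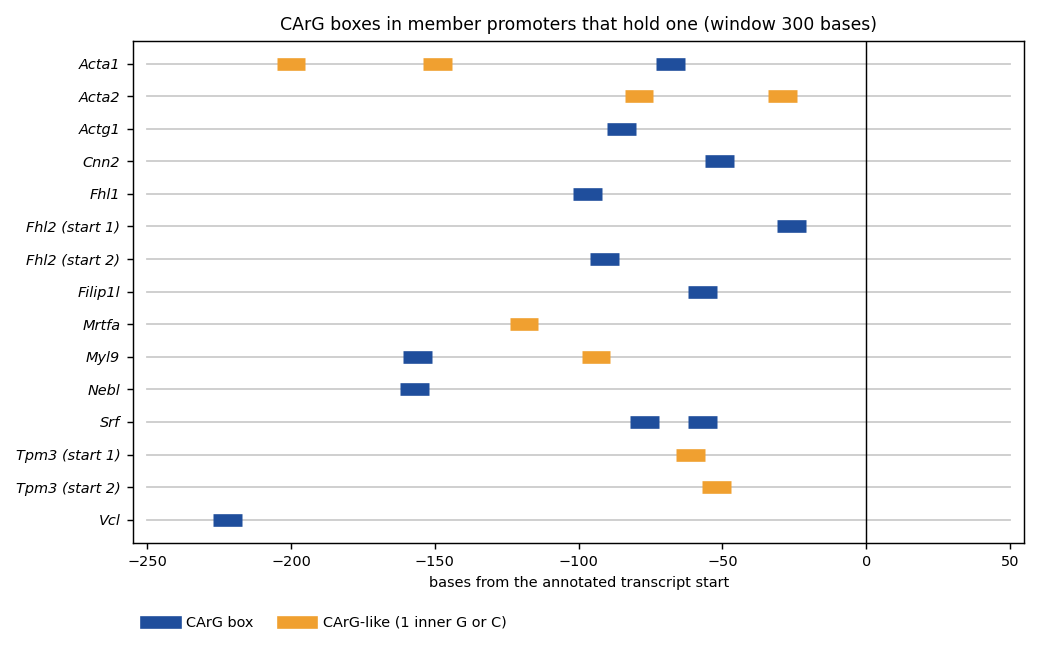
Positions of strict CArG boxes (blue) and of the looser form with 1 inner G or C (orange) in the RefSeq windows of members that hold either, in bases from the annotated transcript start (vertical line). The matches run from 31 bases before the start, in Fhl2, to 205 in Acta1 and 227 in Vcl.

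Actins, the filament subunits, had the vector array lowest and the array labelled Mical3 highest in all 5 cases, with larger differences for the muscle forms than for the cytoplasmic ones. Acta2, smooth muscle actin, read 13.67 on the untreated array, 11.61 on the vector array, 13.80 on the one labelled Mical2 and 14.49 on the one labelled Mical3. The vector array thus stood 4.17-fold below the untreated one, a difference of -2.06, and the array labelled Mical3 stood 0.82 above it, short of the size rule. Actg2, smooth muscle gamma actin, read 5.82, 3.96, 4.70 and 7.07 on the 4 arrays and was the 1 actin called lower on the array labelled Mical2 than on the untreated array (-1.12). The untreated array and the one labelled Mical3 were those that reached the floor. Acta1, skeletal actin, read 6.81, 6.23, 7.27 and 7.93, so that the array labelled Mical3 was 1.12 above the untreated and 1.70 above the vector array. The cytoplasmic actins moved far less. Actb spanned 14.76 to 14.96 and Actg1 14.05 to 14.46.

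Actin coding sequences are near-identical, and the probe sets of Acta2 and Actg1 are of a type that can bind transcripts of other genes, so signal may be shared between actins. A second Acta2 probe set without that mark, below the floor on average, read 4.55, 4.03, 5.40 and 6.21, which is the same order of arrays. When probe sets open to cross-hybridisation were left out, Actg1 had no value, and Acta2, now read by that second probe set, was called higher on the array labelled Mical3 against both controls and was no longer called on the vector array.

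Among proteins that bind actin filaments Tagln (transgelin, SM22), a classic smooth muscle target of SRF, moved far more than the rest. It read 10.27 on the untreated array, 6.47 on the vector array, 11.16 on the one labelled Mical2 and 13.45 on the one labelled Mical3. The array labelled Mical3 stood 126-fold above the vector array and 9.06-fold above the untreated one, while the vector array stood 13.9-fold below the untreated one. The array labelled Mical2 was 0.89 above the untreated array, short of the size rule, and 4.69 above the vector array. Tagln has 1 probe set, so these values have no second reading. By the probe set that stands for the gene, no other filament-binding member differed between arrays by 1. Other probe sets of Tpm1, Tpm3 and Cald1 did, as given below. Tagln2, a relative of Tagln, read 12.30, 11.95, 12.62 and 12.52.

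The tropomyosins, which lie along the filament and regulate myosin access, and caldesmon followed the actins at smaller size. Tpm1 read 12.83, 12.06, 12.80 and 12.99, and Tpm4 read 13.31, 12.61, 13.33 and 13.41, so both dipped on the vector array (-0.77 and -0.70) and lay close together on the others. Tpm3 (12.75, 12.40, 12.79 and 13.13) and Cald1, caldesmon (12.92, 12.37, 12.80 and 13.36), had the vector array lowest and the array labelled Mical3 highest. Tpm2 went the other way within a narrow range, from 12.29 on the array labelled Mical3 to 12.61 on the array labelled Mical2. Probe sets of 1 gene differed in size: another Tpm3 probe set read 5.58, 5.17, 5.32 and 7.49, a difference of 1.91 between the array labelled Mical3 and the untreated array, against 0.38 for the one that stands for the gene. Another Tpm1 probe set read 8.41, 7.30, 8.36 and 8.97, with a dip of -1.11 on the vector array. For Cald1 another probe set read 10.20, 9.05, 9.89 and 10.47. It dipped by -1.15 on the vector array and lay 1.42 above the vector array on the array labelled Mical3.

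The calponins, which inhibit myosin ATPase on the filament, and leiomodin were mixed. Cnn2 read 12.38, 11.56, 12.15 and 12.44, again with the vector array lowest. Cnn3 read 13.37, 13.31, 13.02 and 13.49, lowest on the array labelled Mical2, and its other 5 probe sets had that array lowest too. Cnn1, the smooth muscle calponin, stayed below the floor at 4.69 to 5.0, and Lmod1, a smooth muscle filament nucleator, spanned only 5.79 to 6.14. Cnn1 and Lmod1 thus stayed within 0.35 between arrays while Acta2 and Tagln varied.

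Among the 4 myosin genes, the probe set that stands for the gene had the array labelled Mical3 highest in none and, of the 3 at the floor, the vector array lowest in Myh9. Mylk, the kinase that phosphorylates myosin light chains, read 7.99 on the untreated array, 7.68 on the vector array, 9.41 on the one labelled Mical2 and 7.45 on the one labelled Mical3. It stood 1.42 above the untreated and 1.73 above the vector array on the array labelled Mical2, and it was lowest on the array labelled Mical3. A second probe set read 6.19, 5.73, 7.0 and 5.67, with the same array highest and the same one lowest. Myh9 (13.59, 13.25, 13.42 and 13.51) and Myh10 (12.65, 12.29, 12.05 and 12.11), the heavy chains of nonmuscle myosin, were highest on the untreated array. The probe sets of Myh9 did not all order the arrays alike: all 5 had the vector array lowest, and 3 lay above untreated on the array labelled Mical3, by 0.07, 0.03 and 0.25. Myl9, a regulatory light chain, lay below the floor at 4.28 to 4.61, although its window holds a CArG box.

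Adhesion and cross-linking proteins held 8 of the 14 members with a 2-fold range. Zyx (zyxin), which gathers at strained adhesions and stress fibres, read 10.02, 8.86, 9.90 and 11.10, so that the vector array was 1.16 below the untreated array and the array labelled Mical3 1.08 above it. Its other probe set read 6.77, 6.04, 6.88 and 7.48, with the vector array lowest and the array labelled Mical3 highest as well, but with differences from the untreated array of -0.73 and 0.71 it stayed short of 2-fold. Vcl (vinculin), which links adhesions to actin, read 12.76, 12.27, 12.69 and 13.39. Pdlim7, an adaptor of stress fibres, read 9.83, 9.0, 10.03 and 10.42, and Tgfb1i1 (Hic-5), an adhesion scaffold related to paxillin, read 8.18, 7.65, 8.04 and 9.04. On the array labelled Mical3 they lay 1.12, 1.42 and 1.39 above the vector array but 0.63, 0.59 and 0.86 above the untreated array, so they were called against the vector array and not against both controls. Of the other Pdlim7 probe sets, 1 read 8.86, 9.11, 9.27 and 9.94, with the untreated array lowest, and 1 read 5.95, 5.59, 6.01 and 6.30, with the vector array lowest.

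The LIM-only proteins Fhl1 and Fhl2 went opposite ways. Fhl1 read 10.94, 10.21, 10.80 and 12.62, which put the array labelled Mical3 at 3.20-fold the untreated and 5.32-fold the vector level, while the other 3 arrays lay within 0.73 of each other. Fhl2, a coregulator known to bind SRF, read 8.99, 8.90, 9.84 and 8.15. It was 0.85 above the untreated array on the array labelled Mical2 and 0.84 below it on the array labelled Mical3, a gap of -1.69 between the hairpin arrays. Both genes have a CArG box in at least 1 window, at 102 bases in Fhl1 and at 31 and 96 bases in Fhl2, as printed above.

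Nebl and Filip1l also departed from the group. Nebl, which encodes the actin-binding protein nebulette, read 5.60 on the untreated array, 5.60 on the vector array, 4.37 on the one labelled Mical2 and 7.18 on the one labelled Mical3. It was the 1 member called in opposite directions by the hairpin arrays, with differences of -1.23 and 1.58 from each control. Its controls lay just above the floor, and its other probe sets were below the floor on every array. Filip1l, a filamin A interacting protein that inhibits migration of endothelial cells, read 10.08, 10.50, 10.44 and 9.33 and was 1.17 lower on the array labelled Mical3 than on the vector array. Among the cross-linkers, Flna (filamin A) read 11.40, 10.86, 11.84 and 11.32, Actn1 13.18, 12.96, 13.29 and 13.49, and Actn4 11.53, 11.40, 11.40 and 11.74. Pdlim5, a Z-line adaptor, ranged from 10.50 on the array labelled Mical2 to 11.22 on the vector array.

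The factors themselves varied less than many of their targets. Srf read 9.13, 8.70, 9.21 and 9.43, with the vector array lowest and the array labelled Mical3 highest, and a second Srf probe set ranked the arrays alike, at 7.24, 6.84, 7.29 and 7.85. SRF is known to act on its own promoter, whose boxes are printed above. Mrtfa read 8.53, 8.93, 8.78 and 8.85, and Mrtfb read 9.86, 10.44, 9.73 and 9.81. Both cofactors were thus highest on the vector array, where most contractile members were lowest. The other probe sets of Mrtfb did not have the vector array highest, at 6.48, 6.77, 7.20 and 7.10 and at 6.23, 6.01, 6.27 and 5.80. By the probe set that stands for the gene, no factor was called in any comparison. For Srf that probe set is of the type that can bind transcripts of other genes. The second Srf probe set, without that mark, lay 1.01 above the vector array on the array labelled Mical3, which passes the size rule.

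Nppb, the natriuretic peptide BNP, is the secreted member and a stress-induced gene of heart muscle. It read 6.08 on the untreated array, 5.48 on the vector array, 7.63 on the one labelled Mical2 and 8.29 on the one labelled Mical3. Both hairpin arrays exceeded both controls, by 1.55 and 2.15 for the label Mical2 and by 2.21 and 2.81 for the label Mical3, which no other member did at 2-fold. It has 1 probe set. No match to either form of the CArG box was found in its window.

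**Figure D4:**
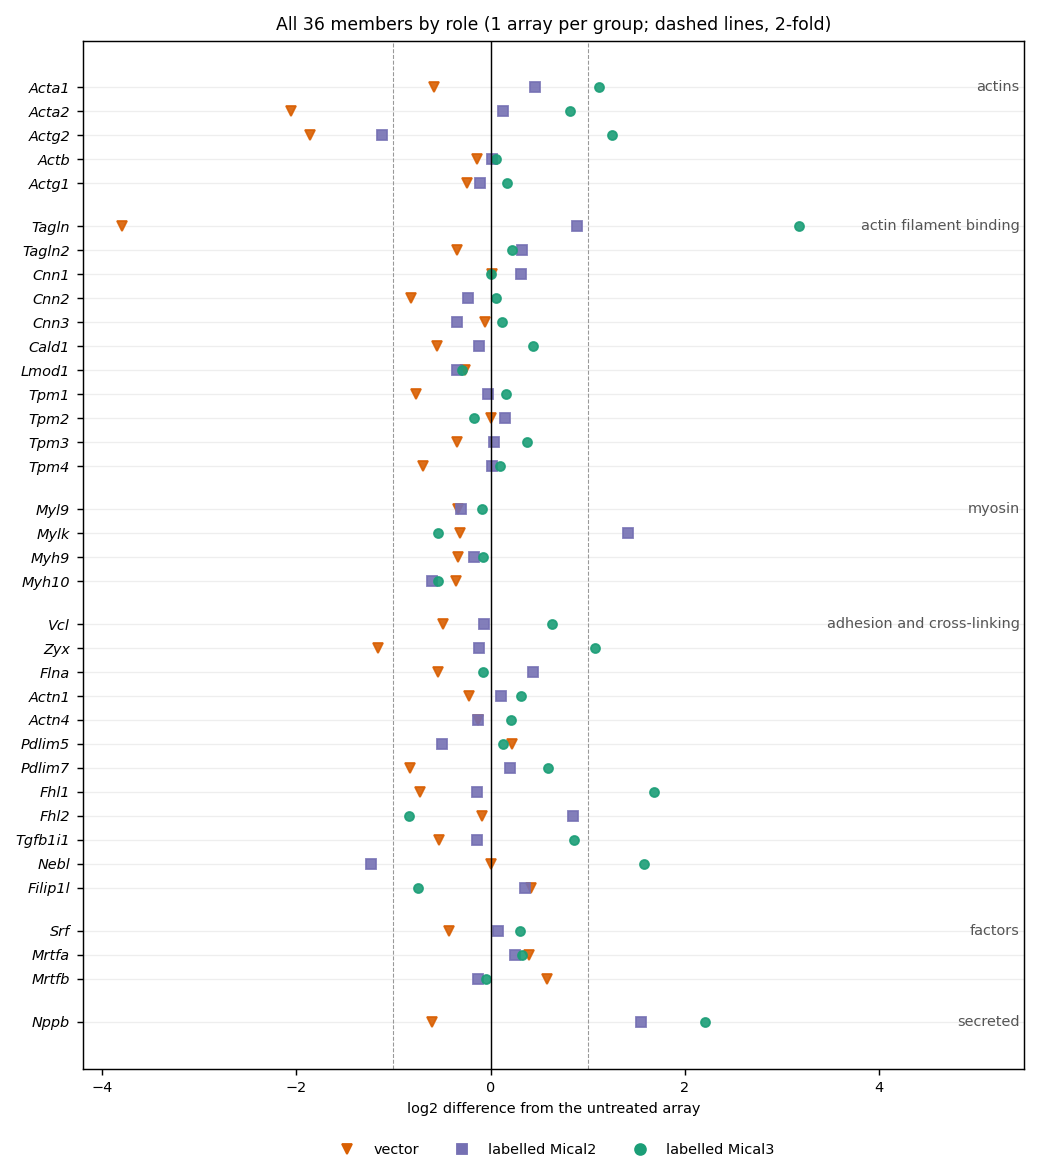
Log2 difference of the vector array (triangles), the array labelled Mical2 (squares) and the array labelled Mical3 (circles) from the untreated array for all 36 members, ordered by role, with 1 array per group and dashed lines at 2-fold. Triangles lie left of 0 for 29 members, and circles lie beyond the right dashed line for Acta1, Actg2, Tagln, Zyx, Fhl1, Nebl and Nppb.

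The other 20 members that reached the floor kept within 0.20 to 0.99 between their highest and lowest arrays, with a median range of 0.635. For all 34 the median range was 0.905, against 0.55 over all genes at the floor. Of 16 members with at least 2 probe sets whose mean reached the floor, all probe sets agreed in sign in 9 for the array labelled Mical2 against untreated, in 10 for vector against untreated, and in 11 for the array labelled Mical3 against untreated. They agreed in 12 for each of the remaining 3 pairs of arrays.

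Upstream of the MRTFs, RhoA and its effectors drive actin polymerisation. A list of 20 genes covered that route. It also held Elk1, Elk3, Elk4, Myocd, Scai and Mical2, which are not RhoA effectors, so its counts and medians do not describe the route alone. Of the 20, 19 were measured and 17 reached the floor. None was called against both controls on the array labelled Mical2 (all genes 2.73%) or the array labelled Mical3 (3.87%). None was called between the vector and the untreated array (5.83%). With shares that small, few calls could be looked for among 17 genes. Limk1, a kinase that inactivates cofilin, read 8.06, 7.08, 7.85 and 8.99, so it had the vector array lowest and the array labelled Mical3 highest. Against the vector array Rhob (8.95 to 10.10), the formin gene Diaph3 (7.88 to 9.10) and Limk1 were called higher on the array labelled Mical3 (all genes 4.64%). On the array labelled Mical2 Rhob was called higher (3.82%) and Diaph2 lower (6.91%). Between the hairpin arrays, Limk1 was called higher (all genes 3.72%) and Elk3 lower (3.81%) on the array labelled Mical3, by 1.14 and -1.14. The median of the list was -0.06 for the vector and 0.14 for the array labelled Mical3, each from the untreated array. Rhoa itself read 12.17, 11.59, 12.15 and 12.31.

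Of 22 other genes that MRTFs are known to regulate, 21 were measured and 19 reached the floor. On the vector array 4 were called lower than on the untreated array (all genes 2.57%) and 1 higher (3.26%). Those lower were Ccn2 (10.54 against 12.78), a matricellular growth factor, Thbs1, thrombospondin (9.16 against 10.73), and the integrin genes Itga1 (4.81 against 6.47) and Itgb1 (9.56 against 10.70), and Tgfb1 was higher (6.26 against 5.24). On the array labelled Mical3, 1 was called higher against both controls (all genes 1.38%), Ankrd1 at 11.66 (vector 10.16, untreated 10.47). In the same comparison 1 was called lower (2.49%), Csrp2 at 8.28 (vector 9.60, untreated 10.25). On the array labelled Mical2 none was called against both controls (2.73%). The list's medians from the untreated array were -0.31 for the vector, -0.04 for the array labelled Mical2 and 0.24 for the array labelled Mical3. The members' own were -0.35, -0.005 and 0.19. Other pairs lay further apart: the array labelled Mical3 had a median of 0.35 from the vector array (members 0.55). From the array labelled Mical2 it was 0.09 (members 0.25).

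SRF also works with ternary complex factors, which answer to MAP kinase signals and switch on immediate early genes. All 12 listed targets of that kind were measured and 11 reached the floor. Against both controls, Fos and Klf6 were called higher on the array labelled Mical2 (all genes 0.977%). On the array labelled Mical3, Fos, Ier3, Dusp1 and Klf6 were called higher (1.38%) and Egr2 lower (2.49%). None was called between the vector and the untreated array (5.83%), where the median was -0.105. Fos, a subunit of AP-1, read 8.67, 8.71, 10.40 and 10.01, and Klf6, a zinc finger factor, read 9.88, 9.39, 10.89 and 11.05, so both hairpin arrays lay above both controls. Dusp1, a MAP kinase phosphatase, read 9.57, 8.92, 10.32 and 12.21, and Ier3 read 11.76, 10.92, 11.98 and 13.10. Egr2 read 5.62, 5.31, 6.02 and 4.13. Unlike most of the contractile members, Fos did not differ between the controls by more than 0.04.

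**Figure D5:**
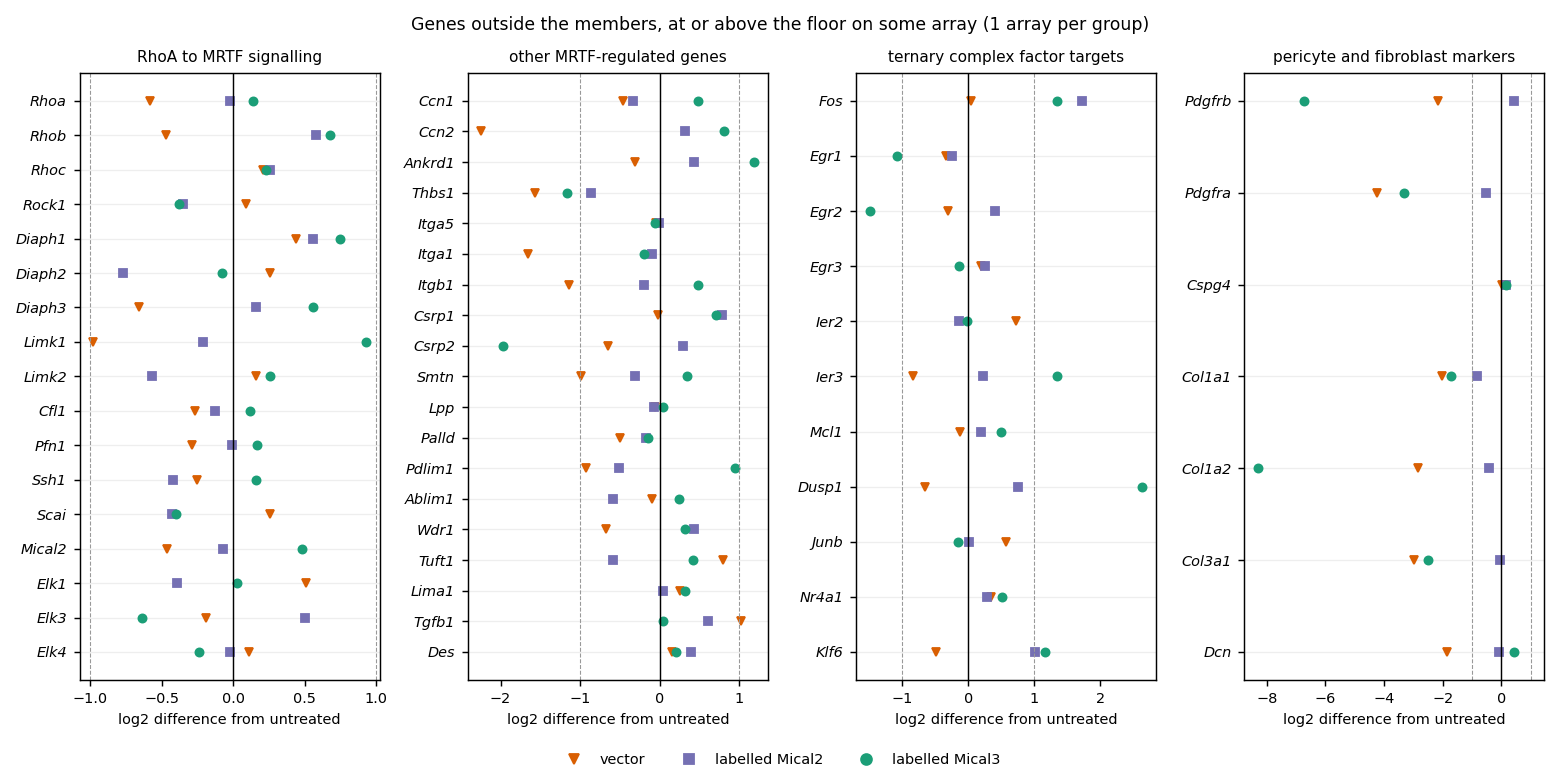
Log2 difference from the untreated array for genes outside the 36 that reached the floor, in 4 lists, with triangles for the vector array, squares for the array labelled Mical2 and circles for the array labelled Mical3, dashed lines at 2-fold, and a separate axis for each panel. Ccn2 is farthest left for the vector array among other MRTF-regulated genes (10.54 against 12.78), and Col1a2 and Pdgfrb are farthest left for the array labelled Mical3 among pericyte and fibroblast markers.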

How the data were processed

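The authors deposited a log2 value for every probe set on every array, made by RMA (background correction, quantile normalization and probe summary) per the submitters' processing notes, with the version not given in the sources used here. Quantile normalization gives all arrays nearly the same distribution, so a shift common to all genes cannot be seen. The values were used without further scaling. Of 45101 probe sets, 64 manufacturer's controls were set aside, 34945 had 1 gene symbol, 932 several and 9160 none. Symbols were updated by Entrez identifier against RefSeq GRCm38.p6 for 34741. Named members are those with a range of at least 1 over the arrays and a level at the floor, and the rest are given to complete each role. The size rule was checked on simulated data with independent noise of standard deviation 0.25 and changes planted in genes well above the floor. Of 50 rises of 1.5 it called 44, of 50 falls of 1.5 it called 47, and of 17993 unchanged genes 3. Changes in genes near the floor and variation between cultures were not covered. The members and lists were chosen with earlier results of these data known. Lists covered RhoA to MRTF signalling with SRF partners, other MRTF-regulated genes and ternary complex factor targets. Marker lists covered endothelial, smooth muscle, pericyte and fibroblast, skeletal muscle, leukocyte and epithelial cells. Alternatives were other probe set choices, folds, floors, controls and scalings. The number of arrays limits the precision. Python 3.11.15, numpy 2.4.6, pandas 2.3.3 and matplotlib 3.10.9 were used.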

Additional observations from a re-analysis of the deposited data

Results flagged for a closer look

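Nebl differed in opposite directions on the hairpin arrays. Its level on the array labelled Mical2 differed from the vector array by -1.23 and from the untreated array by -1.23. The level on the array labelled Mical3 differed by 1.58 from the vector array and by 1.58 from the untreated array. With 1 array per group the difference between the hairpin arrays was not tested.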

How the results depend on the processing

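All 6 median differences of the members moved by less than the spread between probe sets of 1 gene under each of their 42 alternatives. That measure is loose for a median: for the array labelled Mical3 against untreated the spread was 0.279 and the median 0.19. Between the hairpin arrays they were 0.278 and 0.25. With the probe set of highest variance, the medians from the vector array rose from 0.55 to 0.84 (label Mical3) and from 0.405 to 0.59 (label Mical2). With probe sets averaged they fell to 0.495 and 0.374. Among the counts, 27 of 40 alternatives kept the number of called members within 1.5 times. With a gene's probe sets averaged, the counts of called members, each with the share called over all genes, fell to 1 (1.96%) for the array labelled Mical2 against both controls (Nppb), 4 (2.81%) for the array labelled Mical3 (Acta1, Actg2, Nppb and Tagln) and 2 (4.57%) for the vector against the untreated array (Actg2 and Tagln). With the probe set of highest variance they were 3 (3.43%), 8 (5.29%, with Tpm3 added) and 6 (7.89%, with Cald1 and Tpm1 added). At 1.5-fold they were 5 (8.11%), 13 (11%) and 10 (17.6%), and 14 (19.2%) between the hairpin arrays. At 3-fold they were 0 (0.928%) for the array labelled Mical2 and 3 (1.36%) for the array labelled Mical3 (Fhl1, Nppb and Tagln). With the floor at the 75th percentile they were 1 (2.68%) and 4 (4.11%), and against the vector array alone 8 (10.7%) and 12 (11.8%). The causes were not tested. No array shift exceeded 0.024, and the median difference of all genes stayed within 0.051 of 0 in the comparisons and settings run. No paired analysis was possible because each group has 1 array.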
